A study of Mus musculus with 2 samples.

Results

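The leukocyte and macrophage marker genes are a set of 32 listed genes, of which 28 have a row under that symbol among the 29383 gene symbols of the deposited table. The other 4 were listed under an older RefSeq symbol: Lyz1 as Lyz, Lyz2 as Lyzs, Spi1 as Sfpi1 and Pf4 as Cxcl4. Sums and counts below use the 28 genes unless the 4 are named.

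Transcripts were read by RNA sequencing in the apex of mouse embryonic hearts at stage E12.5, in 1 library for each of 2 genotypes, each from tissue of 8 hearts. The heterozygous control carried Nkx2-5cre and Ezh2f/+, that is 1 floxed and 1 wild-type allele, and the mutant carried Nkx2-5cre and Ezh2f/f, so that the Cre driver and a floxed allele are present in both. Nkx2-5 is active in the heart lineage, and Ezh2 encodes the methyltransferase of Polycomb repressive complex 2, a repressor of developmental genes. The labels call the sample cardiomyocytes and name no sort. With 1 library per genotype and pooled hearts, no spread between animals was measured and no p-value was computed. All intervals are 95% intervals of counting error only.

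Macrophages of the embryonic heart descend from yolk sac and fetal liver progenitors, settle in the tissue before birth and clear dying cells. They are known for the growth factor receptor Csf1r, for complement C1q and for Fc receptors that signal through small adaptor proteins. Neutrophils carry granule proteins and calgranulins, and megakaryocytes and platelets carry the chemokines Pf4 and Ppbp. In a bulk sample fewer cells of a type and less RNA per cell cannot be told apart.

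Depth was alike, at 13944617 reads (heterozygote) and 14122579 reads (mutant). Levels are counts per 1000000 reads (CPM) after TMM scaling, on which 1 read is worth 0.0739 CPM in the heterozygote against 0.0687 CPM in the mutant. Ezh2 had 493 reads against 319 in the library labelled mutant, a heterozygote-to-mutant ratio of 1.66 (1.44 to 1.92). The 12 cardiomyocyte genes listed summed to 58338 CPM in the heterozygote against 57151 CPM in the mutant, and the 12 endothelial genes to 1234 and 1205 CPM. Lymphocyte genes were near the floor: 1 of 17 reached 1 CPM in a library, and 7 had no read in either.

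Summed over the 28 genes, 1945 reads were found in the heterozygote against 1844 in the mutant, or 143.8 and 126.7 CPM. The mutant-to-heterozygote ratio of this sum was 0.881 (0.826 to 0.939), and with the 4 genes under older symbols it was 0.842 (0.793 to 0.894). The set is thus sparse in both libraries, and its sum was slightly lower in the mutant. Summed by role, granulocyte and platelet genes had the lowest ratios and the shared leukocyte genes were nearly level. Single genes departed from their role, among them Fcgr3 and Lyz2 with low ratios and Cd68 with a high one.

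On the scale log2((mutant CPM + 1)/(heterozygote CPM + 1)), 20 of the 28 genes reached 1 CPM in a library, about 14 reads. Their median was -0.21, beside -0.0079 over the 16185 genes at this floor, and 16 of 20 were below 0, beside 51.2% of all genes. Over all 28 genes the median was -0.20. S100a9 passed the floor through the heterozygote alone, so it could be counted as lower but not as higher. It was the 1 gene at least 2-fold lower, a fold that 0.173% of all tested genes passed in that direction, and 0 were at least 2-fold higher, where the background is 0.605%. With a pseudocount of 5 CPM, or once a trend with GC content and length was removed, S100a9 no longer passed the fold.

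Counting intervals of the plain ratio lay below 1 for 5 of the 20 genes, where 19.1% of all tested genes do so, and above 1 for Cd68 alone, where 17.4% do. The 5 were Fcgr3, Cx3cr1, C1qb, Ppbp and S100a9, the last of which the floor let through only as lower. The share of 5 in 20 is near the background, which includes many genes with far more reads and so narrower intervals.

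**Figure D1:**
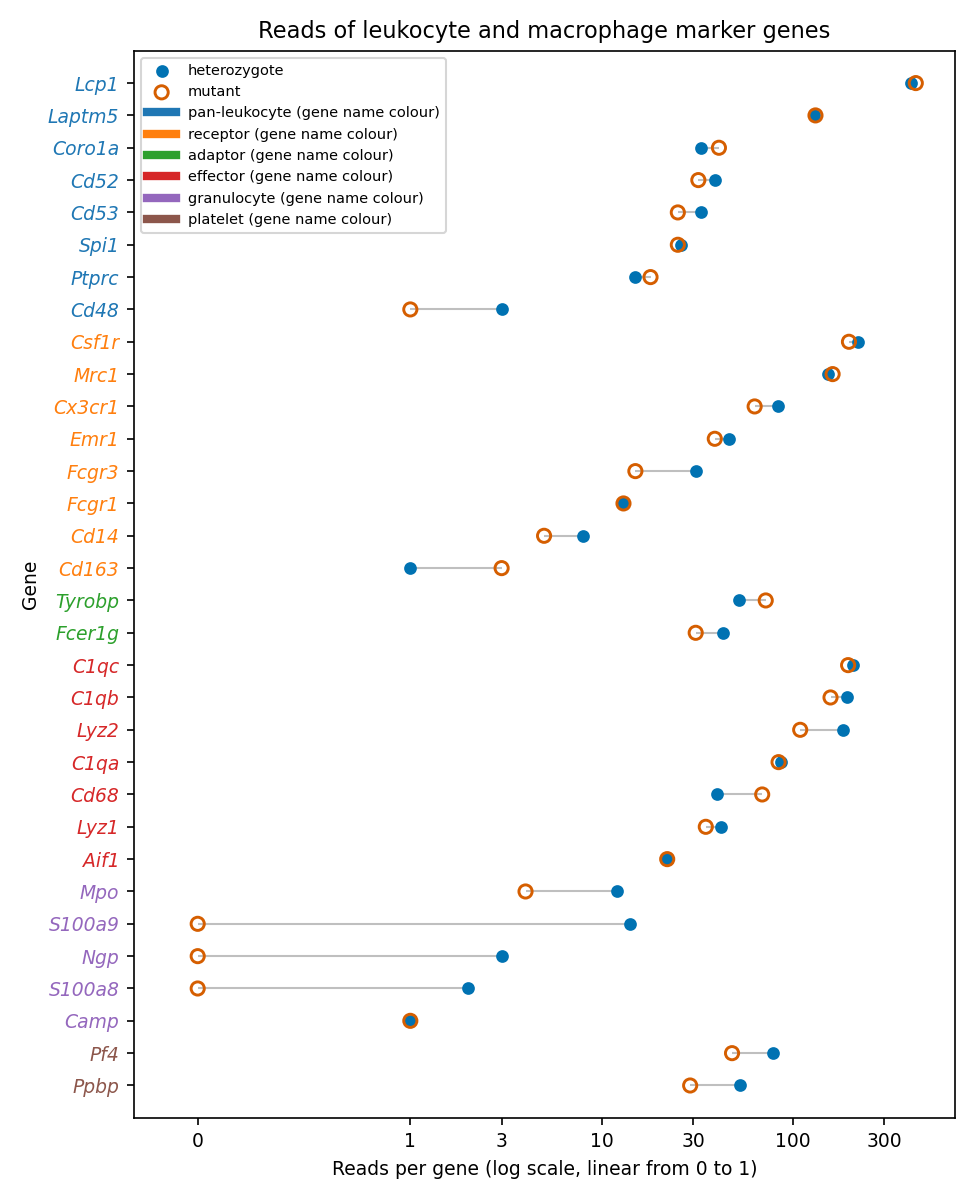
Reads of each of the 32 genes in the heterozygote (filled circles) and the mutant (open circles), on a log axis that is linear from 0 to 1 read, with gene names coloured by role. Lcp1 has the most reads in both libraries (415 and 438), while S100a9, Ngp and S100a8 are at 0 in the mutant.

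Genes shared by most leukocytes were level between the libraries in their sum, to which Lcp1 gave most of the reads. The 7 listed under their own symbol summed to 666 reads in the heterozygote against 686 in the mutant, a ratio of 0.957 (0.859 to 1.07). Lcp1 gave 415 and 438 of these reads. The median log2 ratio of the 6 that reached 1 CPM was -0.05, with 4 below 0, beside 51.2% of all tested genes. Under total-count scaling the ratio of the group including Spi1 was 1.01 (0.912 to 1.13), above 1, against 0.955 (0.859 to 1.06) with TMM.

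Lcp1, which encodes the actin-bundling protein L-plastin (chromosome 14, 75530966 to 75630610), had 415 reads in the heterozygote against 438 in the mutant, a ratio of 0.981 (0.856 to 1.12). It held 21.3% of the set's reads in the heterozygote against 23.8% in the mutant. Without it the summed ratio of the set was 0.854 (0.794 to 0.919). Of the 50-base words in its transcript, 7.46% also occur in transcripts of other genes.

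Laptm5, a lysosomal membrane protein of blood cells, had 128 and 131 reads (0.951, 0.740 to 1.22), and an overlapping model, with 40 and 28 reads, can share some of them. Coro1a, an actin regulator of leukocytes, had 33 reads in the heterozygote against 41 in the mutant (1.15, 0.712 to 1.88). Ptprc, the receptor phosphatase that defines leukocytes, had only 15 and 18 reads (1.11, 0.531 to 2.38) over a transcript of 5740 bases. These 3 differed by less than their counting error.

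The small surface protein Cd52 had 39 reads against 32 in the mutant (0.762, 0.462 to 1.25), and the tetraspanin Cd53 had 33 against 25 (0.704, 0.401 to 1.22). Spi1, the transcription factor that directs myeloid fate, had 26 reads in the heterozygote against 25 in the mutant, a ratio of 0.893 (0.495 to 1.61). Cd48, an adhesion receptor most abundant on lymphoid and myeloid blood cells, had 3 reads and 1, too few for a fold. Intervals of all these genes include 1.

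Macrophage receptors summed to 553 reads in the heterozygote against 495 in the mutant, a ratio of 0.832 (0.735 to 0.941). Csf1r, the receptor for the macrophage growth factor (chromosome 18, 61265226 to 61290793), had 218 reads in the heterozygote against 196 in the mutant, a ratio of 0.835 (0.685 to 1.02). Mrc1, the mannose receptor of resident macrophages, had 153 and 161 reads and a ratio of 0.978 (0.779 to 1.23). Its log2 ratio of -0.03 was 0.05, above 0, both under total-count scaling and once a trend with GC content and length was removed.

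The fractalkine receptor Cx3cr1 had 83 reads in the heterozygote against 63 in the mutant, a ratio of 0.705 (0.500 to 0.990). Emr1, the F4/80 antigen of mature macrophages, had 46 and 39 reads (0.788, 0.501 to 1.23). Both levels were lower in the mutant, and only the interval of Cx3cr1 ended below 1.

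The low-affinity Fc receptor Fcgr3 (chromosome 1, 172981326 to 172989529) had 31 reads in the heterozygote against 15 in the mutant, a ratio of 0.450 (0.226 to 0.858). Its log2 ratio was -0.70 at the main pseudocount and -1.08 at 0.1 CPM, so the call of a 2-fold difference turned on the pseudocount. Of the 50-base words of its transcript, 12.8% also occur in its relative Fcgr2b, and no source used here says how reads matching both were counted. The high-affinity receptor Fcgr1 had 13 reads in each library. The endotoxin co-receptor Cd14 had 8 and 5 reads. The haemoglobin scavenger receptor Cd163, a marker of mature tissue macrophages, was close to absent, with 1 and 3 reads.

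Promoter letters bear on these receptors because Spi1 is known to bind purine-rich sites with a GGAA core beside myeloid gene starts. The word GAGGAAG was searched on both strands in the 250 bases before the gene start, in RefSeq promoters of build GRCm38.p6. Of the 28 genes, 22 had a promoter in that table and 7 of those held the word, beside 12% of all 27025 symbols with a promoter. Printed next are the 150 bases before the start for the 4 receptor and shared leukocyte genes that hold it in this window, 5′ to 3′ on the gene's strand, with the word, here always as its reverse complement CTTCCTC, in capitals.
Fcgr1, chr3:96293970-96294119, minus strand: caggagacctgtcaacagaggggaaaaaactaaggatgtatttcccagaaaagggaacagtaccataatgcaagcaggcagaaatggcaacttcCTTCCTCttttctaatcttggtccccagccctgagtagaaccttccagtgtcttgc
Fcgr3, chr1:171059404-171059553, minus strand: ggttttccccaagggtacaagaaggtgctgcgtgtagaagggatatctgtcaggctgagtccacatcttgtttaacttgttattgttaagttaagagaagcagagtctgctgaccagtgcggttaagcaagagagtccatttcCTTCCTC
Mrc1, chr2:14229264-14229413, plus strand: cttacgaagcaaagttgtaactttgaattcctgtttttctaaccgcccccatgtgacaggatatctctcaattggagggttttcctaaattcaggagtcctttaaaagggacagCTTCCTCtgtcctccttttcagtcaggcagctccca
Laptm5, chr4:130913166-130913315, plus strand: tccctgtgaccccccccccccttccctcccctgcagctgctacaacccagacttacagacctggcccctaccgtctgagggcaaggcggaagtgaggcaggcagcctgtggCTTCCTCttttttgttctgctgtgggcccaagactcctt
A match is a description of these letters. Ratios of the 4 genes ranged from 0.450 for Fcgr3 to 0.978 for Mrc1.

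Of the other promoters with the word, C1qc, Mpo and S100a8 hold it farther upstream, and Pf4, listed under an older symbol, holds it close to its start. Csf1r, Cd14, Emr1 and Tyrobp are among the genes not matched in the promoter table.

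The 2 adaptors that carry the signal of Fc and other receptors went in opposite directions, each within counting error. Tyrobp (DAP12) had 52 reads in the heterozygote against 72 in the mutant, a ratio of 1.29 (0.888 to 1.88). Fcer1g, the common Fc receptor gamma chain and partner of Fcgr3 and Fcgr1, had 43 and 31 reads, a ratio of 0.670 (0.408 to 1.09). Their sum was 95 reads in the heterozygote against 103 in the mutant, a ratio of 1.01 (0.755 to 1.35).

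Secreted and lysosomal effectors, with the lysozyme genes under older symbols, summed to 771 reads in the heterozygote against 670 in the mutant, a ratio of 0.807 (0.727 to 0.897). Without the lysozyme genes the ratio was 0.895 (0.793 to 1.01), so the interval then includes 1. Complement C1q is built from 3 chains, whose genes lie side by side on chromosome 4 between 136436061 and 136454759 in the files' coordinates. C1qa had 86 reads in the heterozygote against 84 in the mutant, a ratio of 0.908 (0.664 to 1.24). C1qb had 191 and 157 reads, a ratio of 0.764 (0.614 to 0.948). C1qc had 207 and 194 reads, a ratio of 0.871 (0.712 to 1.06). All 3 were lower in the mutant after scaling, and their intervals overlap one another. Their summed ratio was 0.835 (0.732 to 0.953), and they held 24.9% of the set's reads in the heterozygote against 23.6% in the mutant.

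Cd68, a lysosomal glycoprotein of macrophages (chromosome 11, 69477873 to 69479564), was the gene that stood higher in the mutant, with 69 reads against 40 in the heterozygote. Its ratio was 1.60 (1.07 to 2.43) and its log2 ratio 0.54, which ranged from 0.29 to 0.68 over the 8 other settings tried. Aif1 (Iba1), a calcium-binding protein of macrophages and microglia, had 22 reads in each library, a ratio of 0.929 (0.491 to 1.76).

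Among genes with at least 100 reads in a library, Lyz2, the lysozyme of macrophages and neutrophils (chromosome 10, 116714597 to 116728249), was the lowest in the mutant. It had 183 reads in the heterozygote against 109 in the mutant, or 13.5 and 7.49 CPM, a ratio of 0.553 (0.433 to 0.705). Lyz1, its tandem duplicate known from Paneth cells of the gut (chromosome 10, 116724853 to 116729924), had 42 and 35 reads, a ratio of 0.774 (0.480 to 1.24). The model of Lyz2 also covers bases 116724853 to 116728249 of the Lyz1 model. Of the 50-base words of Lyz2, 15.4% also occur in Lyz1. Reads may thus be split between the 2 models or counted in both. Their summed ratio was 0.595 (0.479 to 0.736).

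The promoters of the pair show how alike the duplicates are. Over the 150 bases before the start, 86% of positions hold the same base, and the last 50 bases are identical. The 2 sequences follow, 5′ to 3′ on the minus strand of GRCm38.p6 from RefSeq, with the positions that differ in capitals.
Lyz1, chr10:117292869-117293018: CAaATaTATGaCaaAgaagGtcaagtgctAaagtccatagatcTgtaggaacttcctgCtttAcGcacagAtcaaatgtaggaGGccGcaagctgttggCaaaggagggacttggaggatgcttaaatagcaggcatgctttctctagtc
Lyz2, chr10:117282273-117282422: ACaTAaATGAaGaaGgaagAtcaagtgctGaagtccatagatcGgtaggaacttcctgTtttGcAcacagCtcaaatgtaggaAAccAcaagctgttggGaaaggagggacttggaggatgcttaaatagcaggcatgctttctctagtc

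**Figure D2:**
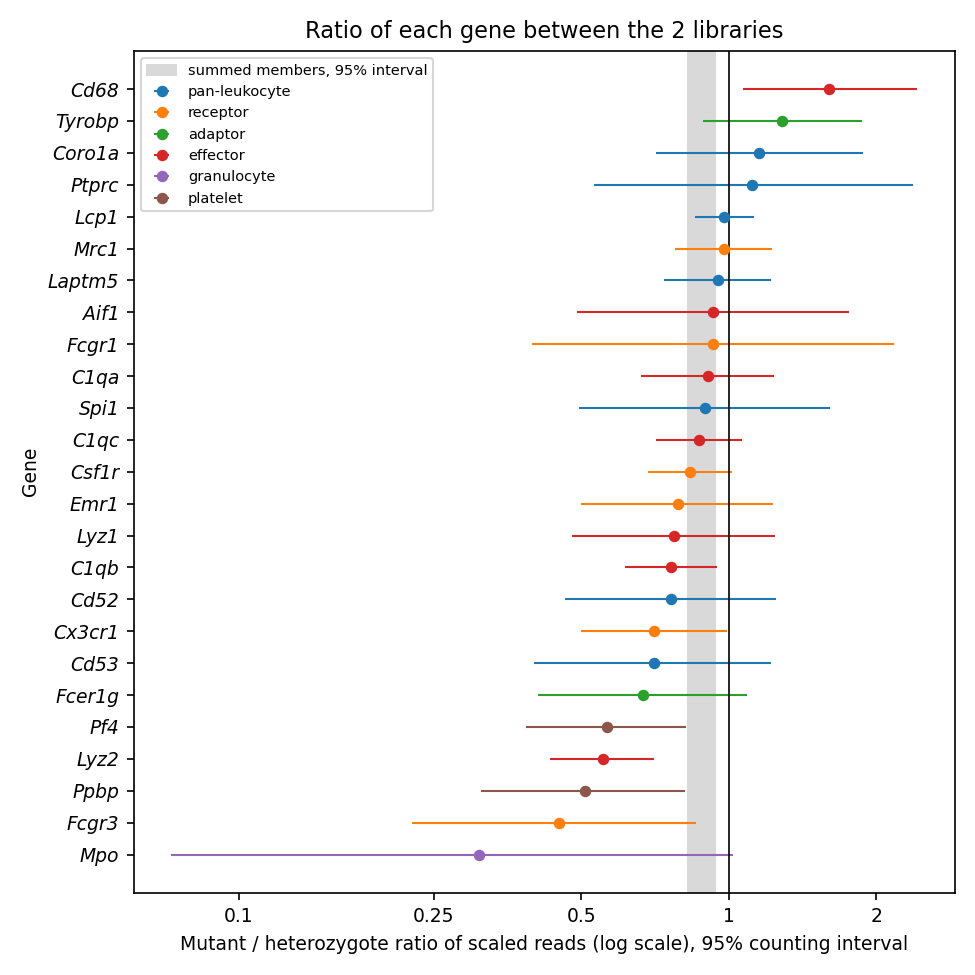
Mutant-to-heterozygote ratio of scaled reads (log axis) with its 95% counting interval, for the genes with at least 10 reads in a library and at least 1 in the mutant, coloured by role. The grey band is the interval of the sum over the 28 genes, 0.826 to 0.939. Cd68 is the 1 gene whose interval lies above 1, and Lyz2, Pf4, Ppbp and Fcgr3 sit among the lowest.

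Neutrophil genes were at the edge of detection and fewer reads were found in the mutant. The 5 genes summed to 32 reads in the heterozygote against 5 in the mutant, a ratio of 0.145 (0.0442 to 0.375). S100a9, a calgranulin (chromosome 3, 90496555 to 90499613), had 14 reads in the heterozygote against 0 in the mutant. The interval of its ratio ran from 0 to 0.280. With the mutant's 0 set to the floor of 3 counts, S100a9 was 5.02-fold lower, a value that leaves out counting error. Its partner S100a8 had 2 reads and 0. Mpo, the myeloperoxidase of neutrophil granules, had 12 reads in the heterozygote against 4 in the mutant, a ratio of 0.310 (0.0728 to 1.02).

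The granule protein genes Ngp, with 3 reads and 0, and Camp, with 1 read in each library, were at or under the floor. The 11 other granulocyte genes listed, among them Prtn3 with 7 and 6 reads, Mmp9 with 4 and 1, and Ctsg with 0 and 2, summed to 12 reads in the heterozygote against 10 in the mutant. Their ratio was 0.774 (0.300 to 1.96), and 0 of them reached 1 CPM. The neutrophil sum rests on S100a9 and Mpo, which gave 26 of its 32 heterozygote reads.

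Both platelet chemokines were lower in the mutant. Ppbp (chromosome 5, 91197544 to 91199086) had 53 reads in the heterozygote against 29 in the mutant, a ratio of 0.508 (0.312 to 0.814). Its neighbour Pf4 (chromosome 5, 91201461 to 91202409) had 79 and 48 reads, a ratio of 0.565 (0.386 to 0.818). Removal of the trend with GC content and length moved the log2 ratio of Ppbp from -0.72 to -0.42 and that of Pf4 from -0.67 to -0.42.

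The median log2 ratio of 16 further megakaryocyte and platelet genes was -0.26. It was -0.47 over the 14 that reached 1 CPM, of which 4 did so in the heterozygote alone and could therefore be counted as lower only. Intervals lay below 1 for 7 of the 14, 3 of those 4 among them, and above 1 for 1. Over all tested genes these shares are 19.1% and 17.4%. In this list 0 were at least 2-fold apart, beside 0.173% lower and 0.605% higher over all tested genes. Plek, a platelet kinase substrate, had 127 reads in the heterozygote against 80 in the mutant (0.585, 0.437 to 0.780). Vwf and Thbs1, which endothelium and other cells also express, had ratios of 0.964 (0.849 to 1.10) and 1.21 (1.11 to 1.31). These 2 hold most of the list's reads, so its summed ratio of 1.01 (0.956 to 1.08) differs in sign from its median.

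Red cell genes were lower in the mutant as well, with a summed ratio of 0.679 (0.675 to 0.684). Of the 11 that reached 1 CPM, 9 had a log2 ratio below 0, beside 51.2% of all tested genes. The adult globin Hbb-b1 had 25870 reads in the heterozygote against 13400 in the mutant (0.481, 0.471 to 0.491). Hba-a2 had a ratio of 0.657 (0.651 to 0.663) and Hbb-y 0.719 (0.708 to 0.730). The models of Hbb-b1 (chromosome 7, 110961038 to 110976441) and Hba-a2 (chromosome 11, 32183672 to 32197310) are far longer than that of Hbb-y (chromosome 7, 111000268 to 111001721). The listed genes Hbb-b2 and Hba-a1 had no matched row, so the longer models may hold their reads. The part of blood content in the granulocyte and platelet values was not tested. Without the granulocyte genes and Ppbp the sum of the set had a ratio of 0.904 (0.847 to 0.965).

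**Figure D3:**
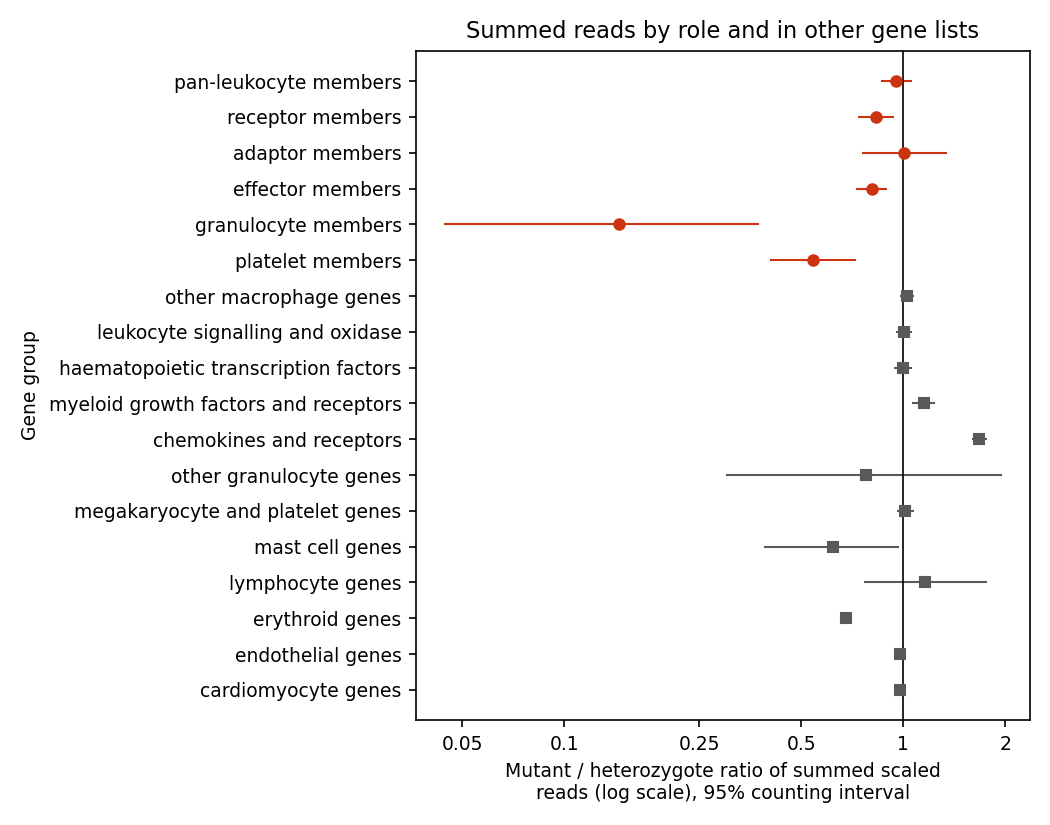
Mutant-to-heterozygote ratio of summed scaled reads (log axis) with its 95% counting interval, for the 6 roles within the set, older symbols included (circles), and for 12 other gene lists (squares). The granulocyte and platelet roles lie at 0.145 and 0.542, while the pan-leukocyte and adaptor roles lie at 0.955 and 1.01.

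Levels of different genes were compared per kb of transcript (scaled CPM per kb). C1qc was highest on average, at 12.7 in the heterozygote against 11.1 in the mutant, followed by C1qb at 12.98 and 9.91. Lyz2, whose model also covers much of Lyz1, came next at 10.3 and 5.69, then Lcp1 at 7.99 and 7.83 and Pf4 at 9.93 and 5.61. C1qb led in the heterozygote against C1qc in the mutant, and this pair did not differ beyond the counting error of their reads. Tyrobp, at 6.44 and 8.28, stood above Csf1r at 3.43 and 2.86, and Ptprc stood far below both at 0.193 and 0.215. Cd163, at 0.0166 and 0.0464, was the lowest.

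**Figure D4:**
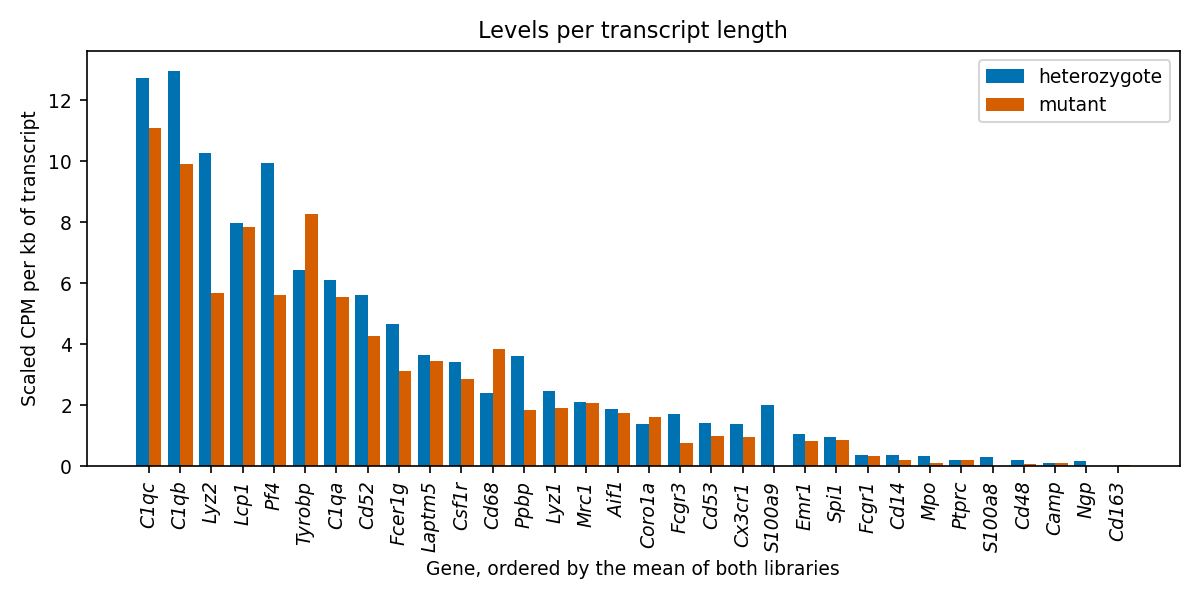
Scaled CPM per kb of the longest annotated transcript in the heterozygote and mutant libraries, for the 32 genes in order of their mean. The bars start at 0 and carry no error bars, since each is 1 library; C1qc and C1qb lead, and Cd163 is lowest.

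Other macrophage genes were mixed. The 22 listed had a median log2 ratio of -0.01 and a summed ratio of 1.03 (0.979 to 1.08). Over the 13 that reached 1 CPM the median was -0.07, with 8 below 0, beside 51.2% of all tested genes. Of these 13, 0 were at least 2-fold apart, beside 0.173% lower and 0.605% higher over all tested genes. Their most abundant members are not restricted to macrophages: Stab1, a scavenger receptor also of endothelium, had 1424 reads in the heterozygote against 1739 in the mutant (1.13, 1.06 to 1.22). Lgmn, which encodes a lysosomal protease, had 700 reads in the heterozygote against 816 in the mutant (1.08, 0.978 to 1.20). Itgam, the integrin of myeloid cells, named after its value was seen, had 251 and 178 reads (0.659, 0.541 to 0.802).

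Genes of leukocyte signalling and the phagocyte oxidase summed to a ratio of 1.01 (0.951 to 1.06), with a median log2 ratio of -0.01 over all 23. The most abundant were Cyba, an oxidase subunit, with 610 and 698 reads (1.06, 0.952 to 1.19), Arhgdib (1.02, 0.897 to 1.15) and the kinase Lyn (0.993, 0.847 to 1.16). Of the 19 that reached 1 CPM, intervals lay below 1 for Cybb and above 1 for Plcg2, both named after their values were seen. Cybb, another oxidase subunit, had 22 and 11 reads (0.465, 0.203 to 0.9997) and reached 1 CPM in the heterozygote alone. Plcg2 had 146 and 201 reads (1.28, 1.03 to 1.59). Transcription factors of blood lineages summed to a ratio of 1.0 (0.941 to 1.06), with a median log2 ratio of -0.08 over all 17. Fli1 was at 0.784 (0.690 to 0.891), Tal1 at 0.949 (0.813 to 1.11) and Lyl1 at 1.02 (0.855 to 1.21). Of the 12 that reached 1 CPM, the interval lay below 1 for Fli1 and above 1 for 2, named after their values were seen. These were Cebpb, with 113 and 213 reads (1.75, 1.39 to 2.22), and Gata2, with 183 and 259 (1.32, 1.08 to 1.60). Over all tested genes, intervals lay below 1 for 19.1% and above 1 for 17.4%. In each of these lists 0 genes were at least 2-fold apart, beside 0.173% lower and 0.605% higher over all tested genes. Both lists are named for roles of their genes, and which cells gave the reads was not tested.

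Ligands of these and related receptors were measured in the same tissue. Csf1, a ligand of Csf1r named for that role, had 211 reads in the heterozygote against 237 in the mutant (1.04, 0.863 to 1.26), and the second ligand Il34 had 3 reads in each. Cx3cl1, the ligand of Cx3cr1, was higher in the mutant, with 270 reads against 161 (1.56, 1.28 to 1.91). The stromal chemokine Cxcl12 had 3267 reads in the mutant and 1653 in the heterozygote (1.84, 1.73 to 1.95), and the monocyte chemokine Ccl2 had 169 and 109 (1.44, 1.13 to 1.85).

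Cxcl12 alone gave most of the reads of the chemokine list, whose summed ratio was 1.68 (1.59 to 1.77) while the median log2 ratio of all 18 genes was -0.03. Of the 9 that reached 1 CPM, intervals lay above 1 for Cxcl12, Cx3cl1 and Ccl2 and below 1 for Ccl9 and Ccr1. Over all tested genes these shares are 17.4% and 19.1%. Ccl9 had 15 reads in the heterozygote against 1 in the mutant (0.0619, 0.00147 to 0.403), and Ccr1 had 14 against 3 (0.199, 0.0367 to 0.713). Both, named after their values were seen, reached 1 CPM in the heterozygote alone and could be counted as lower only. In the list of myeloid growth factors and receptors, Csf2ra had 403 reads in the mutant and 235 in the heterozygote (1.59, 1.35 to 1.88). Kit, with a ratio of 1.16 (1.0 to 1.34), and Kitl, at 0.852 (0.730 to 0.994), are expressed in many cell types. Mast cell genes were nearly absent apart from Hdc, at 49 and 32 reads (0.607, 0.376 to 0.967), with Cpa3 at 2 and 1 and Mcpt4 at 0 and 1. The lymphocyte list had Lck at 27 and 39 reads (1.34, 0.801 to 2.28), Zap70 at 5 and 4 and Cd8a at 3 and 2.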

How the data were processed

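Per the file headers, the deposited values are read counts for 29595 gene models in both libraries, and CPM that the authors computed, per 1000000 reads of a library. The deposited ratio of heterozygote to mutant CPM and the deposited p-value, whose test is not named per the file headers, were not used. No source used here gives the aligner, the counter, strand use or the genome build, and coordinates are those of the files, written with the first base as 1. A trailing chromosome tag was removed from names and rows of 1 symbol were summed; none of the 32 genes had more than 1 row.

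Counts were scaled by TMM (edgeR 4.0.16, R 4.3.3), with factors of 0.970 for the heterozygote and 1.03 for the mutant. No test was run. Intervals of ratios are exact conditional Poisson intervals at 95% and cover counting error only; no molecular identifiers are named in the labels. A library with no read has a floor of 3 counts. The size rule was 2-fold with a pseudocount of 1 CPM among genes reaching 1 CPM in either library, and the code was tested on simulated data. Transcript lengths and 50-base words came from the longest GENCODE M21 transcript per symbol, and promoters from RefSeq.

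The members and the 12 other lists (182 entries, 5 unmatched) were chosen with earlier results of these data known. Every member is named or counted by role; from each other list the 3 genes with the highest mean level are named, with up to 3 that were at least 2-fold apart and had at least 10 reads. Some endothelial and cardiomyocyte genes that this rule names are given only in sums, and 1 gene of another list is not reported here.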

Additional observations from a re-analysis of the deposited data

How the results depend on the processing

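No paired analysis was possible because each genotype has 1 library, and no replicate could be left out. The summed ratio of the 28 genes, or of that set with genes added or left out, stayed below 1 in every setting run. It was lowest, at 0.842, over the 32 genes with older symbols included, a choice made after seeing the data. It was highest, at 0.936 (0.878 to 0.998), for the 28 genes under total-count scaling. The median log2 ratio stayed below 0 as well. It was -0.13 under total-count, -0.20 under upper-quartile and -0.20 under median-of-ratios scaling, -0.23 with a pseudocount of 0.1 CPM, -0.13 with 5 CPM, -0.23 without a pseudocount where counts under 3 were raised to 3, and -0.17 after removal of the trend on GC content and length. It was -0.20 with no floor, -0.15 with a floor of 5 CPM, -0.15 without the granulocyte and platelet genes, -0.24 without Lcp1 and -0.25 with older symbols.

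The count of members at least 2-fold lower was 2 with a pseudocount of 0.1 CPM or where counts under 3 were raised to 3, and 0 with a pseudocount of 5 CPM, after removal of the trend, or with a floor of 5 CPM, which S100a9 does not reach. Over all genes, the counts lower and higher were 143 and 312 at 0.1 CPM, 6 and 14 at 5 CPM, 172 and 347 where counts under 3 were raised to 3, 16 and 58 after removal of the trend, and 14 and 50 with a floor of 5 CPM. The log2 ratio of S100a9 went from -1.02 to -0.65 after removal of the trend, and the cause was not tested. Of 26 members with at least 10 reads in a library, 22 kept the sign of their log2 ratio in all 8 settings; Aif1, Laptm5, Lcp1 and Mrc1, all near 0, did not. The 8 of the 28 under 1 CPM cannot pass the 2-fold rule with a pseudocount of 1 CPM, whatever their ratio. Mpo, one of them, had a log2 ratio of -0.57 with it and -1.40 with 0.1 CPM. Few reads leave wide intervals for these genes.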
